A study of Mus musculus with 10 samples.

Results

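The imprinted genes described here are 35 mouse genes named for their imprinted domain, picked out by symbol among the 55401 genes of the count table. All 35 are in the table, and 34 passed the filter on low counts and were tested; Rtl1 did not pass it. By domain and expressed copy as generally given for mouse, 20 are read from the paternal copy, 11 from the maternal copy and 4 from a copy that depends on the tissue.

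The RNA came from mouse forelimb buds, from their ectoderm, the epithelial cover of the early limb, separated from the mesenchyme with forceps after trypsin digestion (0.25%, 20 min, on ice). At the stage labelled E9.75 the study compared double knockout embryos (DKO, 3 libraries), without Sp8 and Sp6, with wild-type littermates (WT, 3 libraries). Sp8 and Sp6 are zinc-finger transcription factors of the SP family that act in limb ectoderm. Each library held the ectoderm of about 2 forelimb buds, so tissue was pooled. Neither the alleles nor the strain are named in the labels. The libraries are called DKO 17, DKO 40, DKO 41, WT 32, WT 53 and WT 56, after the column names.

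In an imprinted gene one parental copy is silenced by marks set in the egg or sperm, so that the other copy supplies most or all of the RNA. Imprinted genes lie in clusters whose members share a control region, and a cluster can hold genes read from opposite parental copies, often with a noncoding RNA among them. Many act in growth of the embryo and placenta. The table counts reads per gene from both copies together, so it does not show which parental copy a read came from.

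Total counts per library were 85560785, 75996667 and 86142321 in DKO and 86737555, 64432348 and 87040786 in WT. Values below are CPM, counts relative to library size scaled by TMM, with SD over 3 libraries a group, and changes are log2 fold changes of DKO over WT from edgeR's quasi-likelihood test, adjusted by Benjamini-Hochberg over the 19126 genes tested and called at an adjusted p under 0.05. Sp8 RNA was 5.86, 2.38 and 2.80 CPM in DKO against 34.1, 43.2 and 31.3 CPM in WT. Sp6 RNA was 133, 13.9 and 76.9 CPM in DKO against 228, 312 and 320 CPM in WT, a log2 fold change of -1.94 that did not pass the test (edgeR adjusted p = 0.207). Which part of each gene is deleted is not given, so reads outside it may remain. The 14 epithelial markers summed to 2987 to 4082 CPM in DKO and 4618 to 5034 CPM in WT, with none at 0 in any library, and 3 of them fell and 1 rose. The 12 markers of the apical ectodermal ridge, the signalling epithelium at the limb margin, include Sp8, itself knocked out. They summed to 465, 297 and 290 CPM in DKO against 1807, 2023 and 2219 CPM in WT. Of the 12, 8 fell, Sp8 among them. The 15 limb mesenchyme markers summed to 141, 369 and 187 CPM in DKO and to 275, 107 and 128 CPM in WT. None of the 15 rose and 1, Pdgfra, fell by edgeR (4 were higher and 3 lower at an unadjusted p under 0.05, and DESeq2 called 2 higher and 1 lower). Of the 15, 8 had a positive and 7 a negative log2 fold change. Pdgfra was at 2.57, 10.1 and 10.3 CPM in DKO against 67.8, 37.4 and 94.5 CPM in WT. Lhx2 averaged 0.873 CPM in DKO and 7.75 CPM in WT, and Osr1 0.0879 CPM in DKO and 0.604 CPM in WT, with overlapping groups. In Pdgfra, 1 of the 15, every DKO library lay below every WT library, beside 11.3% of all genes tested. In 4 of the 15 every DKO library lay above every WT library without an edgeR call, beside 10.6%. Prrx2 was at 83.0, 174 and 65.4 CPM in DKO against 49.4, 37.3 and 18.5 CPM in WT, and Twist1 at 20.4, 46.7 and 21.4 CPM in DKO against 14.8, 3.06 and 1.46 CPM in WT. Twist2 was at 12.3, 67.1 and 26.1 CPM in DKO against 7.39, 2.31 and 0.549 CPM in WT, and Alx4 at 2.03, 4.15 and 6.21 CPM in DKO against 1.82, 1.31 and 0.240 CPM in WT. Globin and other red blood cell markers summed to 27.0, 127 and 918 CPM in DKO and to 0.116, 301 and 0 CPM in WT. The 6 endothelial markers were low, with sums of 1.64, 0.888 and 0.818 CPM in DKO and 0.475, 0.332 and 0.366 CPM in WT. The 4 neural crest markers summed to 38.8, 42.15 and 47.2 CPM in DKO and 38.2, 40.3 and 37.3 CPM in WT. Of these, edgeR called 0 and DESeq2 called 1 higher, Sox10. The part of the ridge and of these other cell types in the results below was not tested, and in bulk tissue fewer cells of a type and less RNA per cell cannot be told apart.

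The promoters of 4 members that rose are shown because factors of the SP family are known to bind GC and GT boxes. Capitals mark matches, on either strand, to GGGCGG (the GC box), GGGTGG (the GT box) and TGCCGC (the hexamer recognised by ZFP57, a factor that keeps imprints). Each window runs from 250 bases before to 50 after a RefSeq start on GRCm38.p6, plus strand. Adjacent matches that share letters are printed as 1 run of capitals, as in Ndn. The windows are chr12:109452573-109452872 for Dlk1, chr12:109540746-109541045 for one of the Meg3 starts, chr6:30737800-30738099 for one of the Mest starts, and chr7:62348027-62348326 for Ndn.
Dlk1: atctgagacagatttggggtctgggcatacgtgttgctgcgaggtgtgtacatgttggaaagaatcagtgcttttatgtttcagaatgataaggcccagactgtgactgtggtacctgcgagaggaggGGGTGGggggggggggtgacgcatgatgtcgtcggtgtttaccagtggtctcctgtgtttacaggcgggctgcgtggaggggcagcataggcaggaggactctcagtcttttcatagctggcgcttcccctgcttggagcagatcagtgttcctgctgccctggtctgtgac
Meg3: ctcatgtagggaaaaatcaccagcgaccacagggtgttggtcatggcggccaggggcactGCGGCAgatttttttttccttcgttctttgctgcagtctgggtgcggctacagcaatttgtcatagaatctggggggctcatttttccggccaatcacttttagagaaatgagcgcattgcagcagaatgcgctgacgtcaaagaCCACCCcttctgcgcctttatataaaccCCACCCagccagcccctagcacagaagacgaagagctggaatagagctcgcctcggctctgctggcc
Mest: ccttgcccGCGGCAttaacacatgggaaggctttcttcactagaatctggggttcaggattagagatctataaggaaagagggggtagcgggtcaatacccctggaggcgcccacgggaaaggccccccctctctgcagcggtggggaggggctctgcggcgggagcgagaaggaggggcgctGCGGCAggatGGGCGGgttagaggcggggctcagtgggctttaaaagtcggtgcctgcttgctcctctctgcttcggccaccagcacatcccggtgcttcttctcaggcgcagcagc
Ndn: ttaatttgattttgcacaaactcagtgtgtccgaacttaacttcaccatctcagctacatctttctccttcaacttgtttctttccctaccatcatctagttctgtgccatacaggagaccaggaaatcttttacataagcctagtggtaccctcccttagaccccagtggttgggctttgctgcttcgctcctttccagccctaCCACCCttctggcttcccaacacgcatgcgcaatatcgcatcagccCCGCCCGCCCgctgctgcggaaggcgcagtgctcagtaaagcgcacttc

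In the Dlk1 window 1 GT box matched, and in the Meg3 window shown 2 GT boxes and 1 ZFP57 hexamer. Another Meg3 window, not shown, held 7 GT boxes, 0 GC boxes and 0 ZFP57 hexamers. The Mest window held 1 GC box and 2 ZFP57 hexamers, and the Ndn window held 2 GC boxes and 1 GT box. Rian and Mirg, which also rose, have windows that are not shown. That of Rian held 0 matches to any of these motifs, and that of Mirg held 1 GT box. Of the 35 members 28 have a RefSeq promoter that was used here, with 44 windows in all because a gene can have several starts. Sgce, H19, Rtl1, Peg13, Peg10, Impact and Cdkn1c have no entry there. GC boxes were in 19 of the 44 windows (43.2%) beside 35.7% of all 32851 windows, GT boxes in 21 (47.7%) beside 31.5%, and the ZFP57 hexamer in 11 (25.0%) beside 11.6%. Windows of one gene can overlap, as in Mest, so a site can be counted more than once. By gene, 15 of the 28 members had a GC box, 17 a GT box and 10 the hexamer, which was not counted by gene over all promoters. These are letter matches, and binding was not measured here.

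Several members are also hosts of microRNAs, and 3 of the hosts that rose lie in one cluster on chromosome 12. Annotated mature microRNAs number 8 in exons and 18 in introns of Mirg, 3 in exons of Meg3, 6 in introns of Rian, 2 in introns of Mest, and 11 opposite to exons of Rtl1. A few are shown to place what these transcripts carry, from RefSeq on GRCm38.p6, with the seed (bases 2 to 8) in capitals. The first 4 lie in exons of Mirg, miR-127-3p lies opposite to an exon of Rtl1 and miR-335-5p in an intron of Mest.
mmu-miR-134-5p: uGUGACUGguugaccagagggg
mmu-miR-485-3p: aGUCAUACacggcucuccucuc
mmu-miR-377-3p: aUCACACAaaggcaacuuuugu
mmu-miR-410-3p: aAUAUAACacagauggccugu
mmu-miR-127-3p: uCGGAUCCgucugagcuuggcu
mmu-miR-335-5p: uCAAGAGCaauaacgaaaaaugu
The seeds of the 6 differ from each other. Mature microRNAs were not measured here, and the values below are of the host transcripts.

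Among the imprinted genes 7 rose in DKO ectoderm and 0 fell. They were Dlk1, Meg3, Rian and Mirg of the Dlk1-Dio3 cluster, Peg10, Mest and Ndn. Without DKO 40, WT 32 or WT 56, each left out alone, 4 rose: Dlk1, Meg3, Rian and Peg10. Over all genes tested, 863 (4.51%) were called, 325 higher (1.7%) and 538 lower (2.81%). Of the 34 tested members 24 had a positive and 10 a negative log2 fold change, with a median of 0.44 beside 0.03 over all genes tested. At an unadjusted p under 0.05 the edgeR test had 15 members higher and 3 lower, and DESeq2 called 10 higher and 1 lower. The paternally read members had 4 higher of 19 tested, the maternally read members 3 of 11, and the 4 with a copy that depends on tissue 0 by either tool (2 higher and 1 lower at an unadjusted p under 0.05).

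In 15 members all DKO libraries lay above all WT libraries, 7 of them called, beside 10.6% of all genes tested. In 4 members all DKO libraries lay below all WT libraries, beside 11.3% of all genes tested, and none of the 4 was called by edgeR (DESeq2 called 1, Nnat). In the other 15 tested members and in Rtl1 the groups overlapped. The 35 members together held 10420, 12590 and 11110 CPM in DKO and 9802, 9884 and 8480 CPM in WT, so every DKO sum lay above every WT sum. Mest carried most of that difference: without it the sums were 7120, 8773 and 8225 CPM in DKO and 7974, 7661 and 7031 CPM in WT, which overlap.

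**Figure D1:**
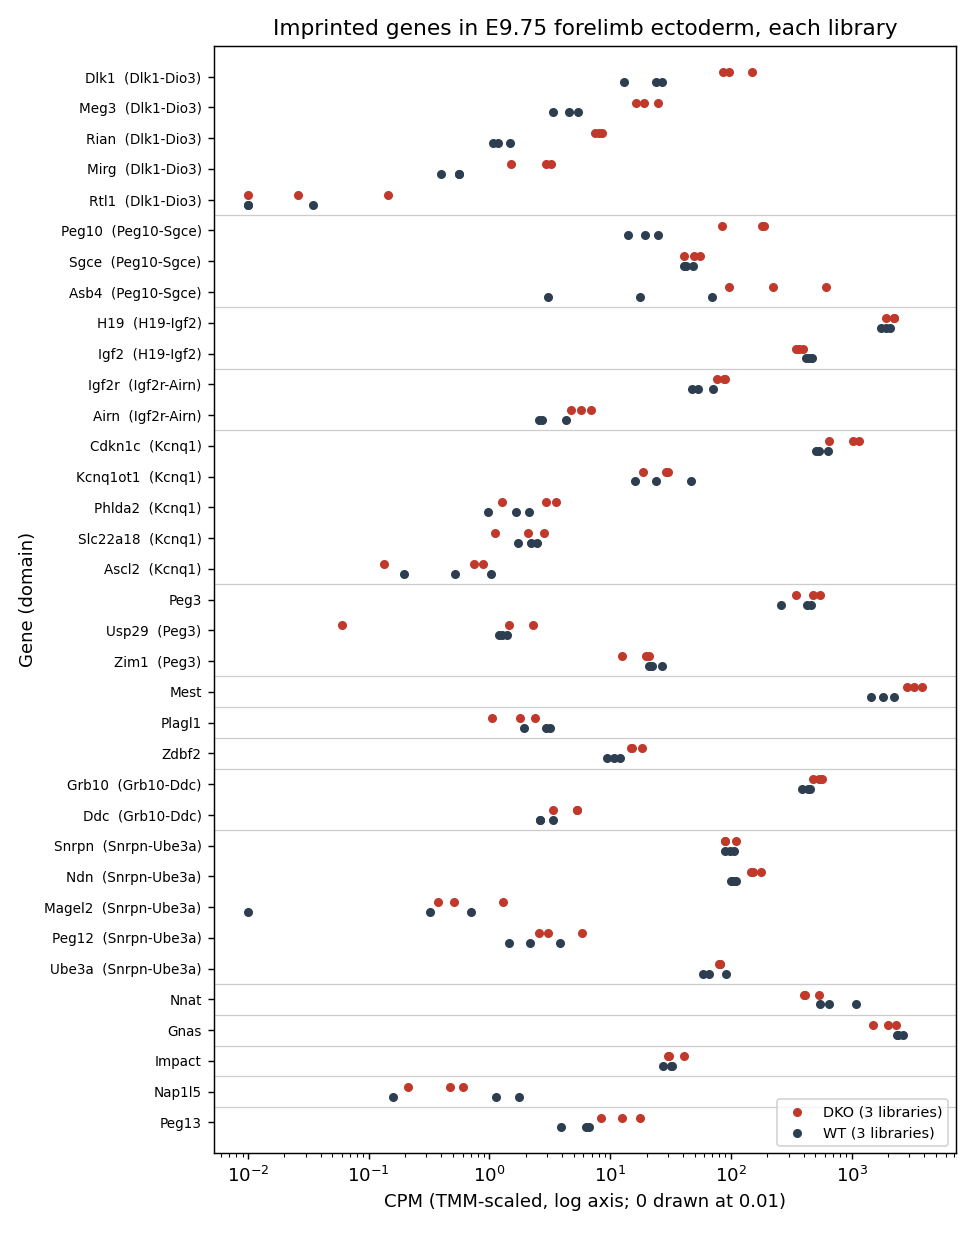
CPM (log axis, 0 drawn at the left edge) of each of the 35 imprinted genes, grouped by domain, with 1 point per library and the DKO points above the WT points. The DKO and WT points lie apart in 19 genes and overlap in the others, Rtl1 included.

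**Figure D2:**
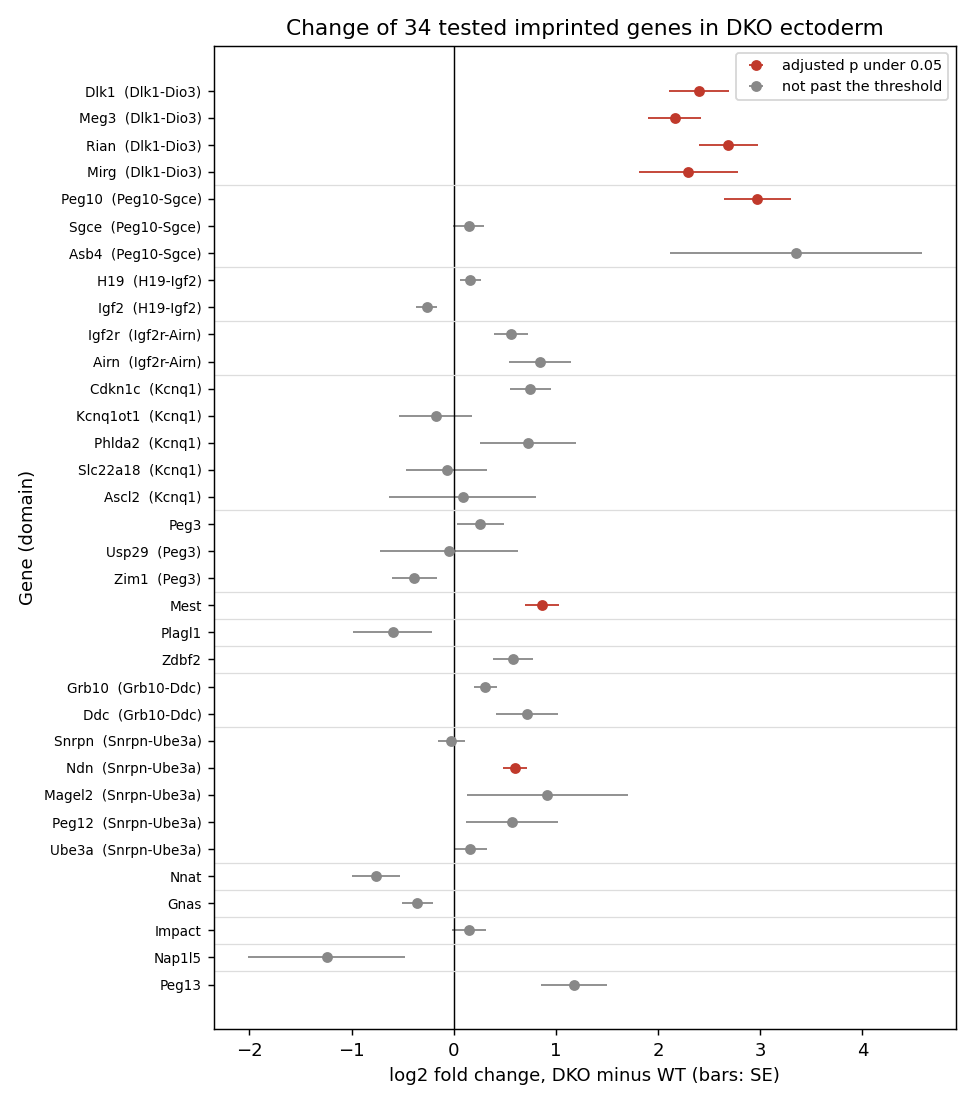
Log2 fold change of DKO over WT for each of the 34 tested imprinted genes (horizontal axis, bars are SE), grouped by domain, with red for genes called at an adjusted p under 0.05. The 7 called genes all lie right of 0, between 0.60 (Ndn) and 2.97 (Peg10), and 10 genes lie left of it.

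In the Dlk1-Dio3 cluster on chromosome 12 the 4 tested members rose by 4.54-fold to 6.48-fold, whichever parental copy they are read from. Dio3 and Begain, tested among the further imprinted genes below, were not called, and their groups overlapped. Dio3 had 0, 51 and 11 counts in DKO and 5, 0 and 17 in WT (edgeR adjusted p = 0.622). Begain had a log2 fold change of 0.19 (edgeR adjusted p = 0.805). Dlk1 (GRCm38 chr12:109452823-109463336, plus strand), a transmembrane and secreted relative of the Notch ligands that holds progenitors from differentiating, is read from the paternal copy. It was at 96.7, 151 and 85.5 CPM in DKO against 24.0, 26.7 and 13.04 CPM in WT. The groups were far apart, with means of 111 ± 34.8 and 21.2 ± 7.24 CPM (SD, n = 3 each) and a log2 fold change of 2.40 (SE 0.29, edgeR adjusted p = 0.00344).

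The maternally read transcripts of the cluster are noncoding. Meg3 (chr12:109541001-109571726), a long noncoding RNA, was at 19.1, 16.5 and 24.8 CPM in DKO against 5.39, 3.33 and 4.58 CPM in WT, a log2 fold change of 2.16 (SE 0.26, edgeR adjusted p = 0.00288). Rian (chr12:109603940-109661716), a host of small nucleolar RNAs, was at 7.55, 8.58 and 8.01 CPM in DKO against 1.48, 1.17 and 1.08 CPM in WT, a log2 fold change of 2.69 (SE 0.29, edgeR adjusted p = 0.00172). In both the lowest DKO library was several times the highest WT library, and the DKO values of Rian were the tightest of the cluster. Mirg (chr12:109729764-109749460), the host of the first 4 microRNAs shown above, was at 2.95, 3.23 and 1.51 CPM in DKO against 0.556, 0.395 and 0.561 CPM in WT, a log2 fold change of 2.30 (SE 0.49, edgeR adjusted p = 0.0321). Its groups did not overlap either, but the call was lost when any single library other than DKO 41 was left out, with adjusted p up to 0.154. Rtl1, a retrotransposon-derived coding gene of the paternal copy needed in placental vessels, had 0, 2 and 13 counts in DKO and 3, 0 and 0 in WT, too few to test.

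**Figure D3:**
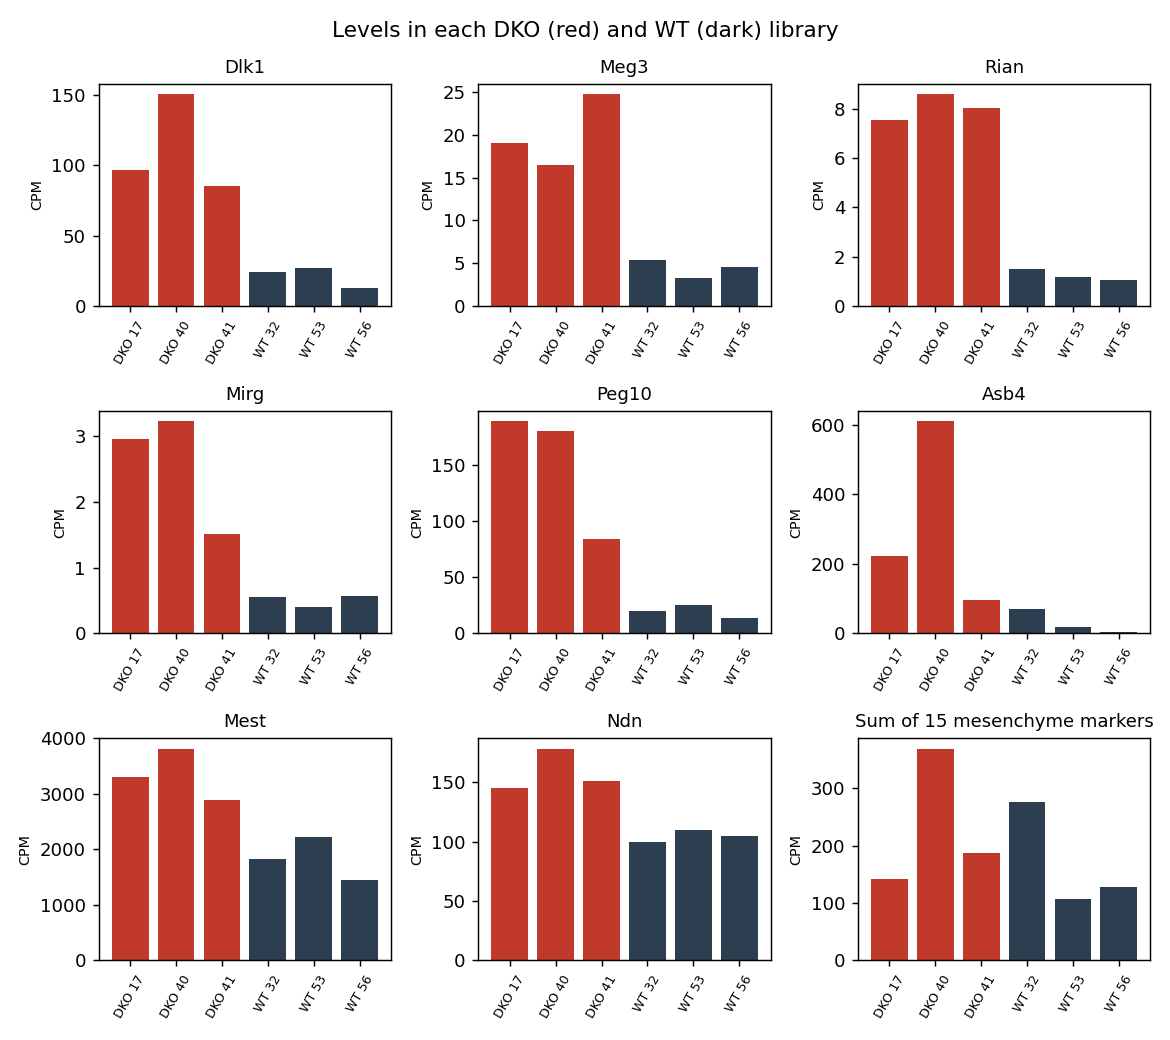
CPM in each library (bars, 1 per library, DKO in red left of WT in dark) of the 7 imprinted genes that rose, of Asb4, and of the summed 15 limb mesenchyme markers, each panel on its own axis from 0. In each of the 8 genes the 3 DKO bars stand above the 3 WT bars, and the mesenchyme sum overlaps, with 369 CPM in DKO 40 and 275 CPM in WT 32 as the highest of their groups.

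Ratios between members of the cluster differed by at most 0.51 on the log2 scale. The log2 ratio of Meg3 to Dlk1 was -2.44 in DKO and -2.22 in WT, a difference of -0.22 (exact two-sided permutation p = 0.7). Mirg to Meg3 differed by 0.09 (exact permutation p = 1) and Rian to Meg3 by 0.51 (exact permutation p = 0.2). With 3 libraries against 3 the smallest p this test can give is 0.1, so none of the ratios could have passed the threshold.

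The tested genes around the cluster were few. Of 3 other tested genes that start within 250 kb of a member there, 1 rose: Gm37899, an annotated gene between Rian and Mirg whose start lies 127.9 kb from that of Meg3, at 2.11, 2.55 and 1.05 CPM in DKO against 0.232, 0.347 and 0.275 CPM in WT (log2 fold change 2.74, SE 0.56, edgeR adjusted p = 0.0253). Like that of Mirg, this call was lost when any single library other than DKO 41 was left out (adjusted p up to 0.149). B830012L14Rik had a log2 fold change of 3.12 (edgeR adjusted p = 0.103), and Gm3379, 354.1 kb from the start of Meg3, one of 0.38 (edgeR adjusted p = 0.495).

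**Figure D4:**
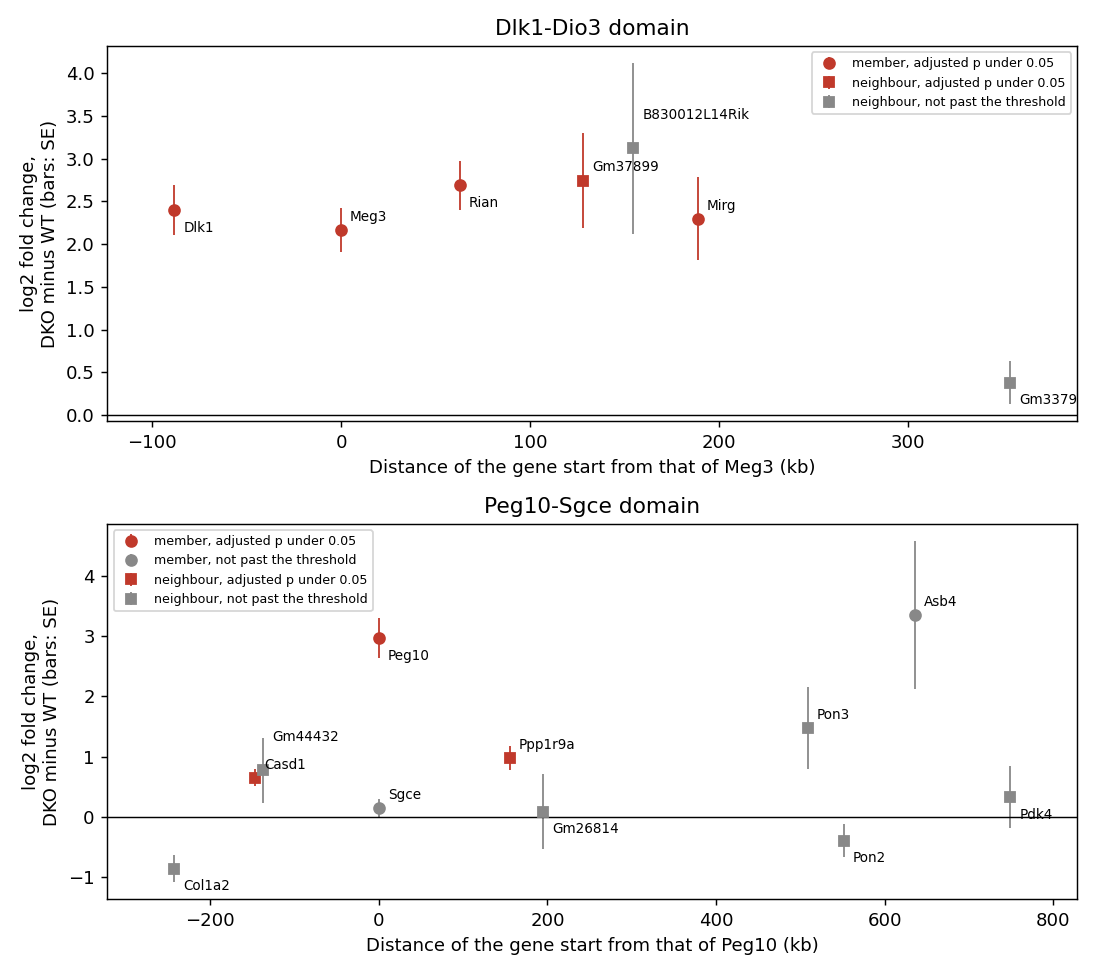
Log2 fold change of DKO over WT (vertical axis, bars are SE) of members (circles) and neighbouring genes (squares) by distance of their start in kb from Meg3 (upper panel) and Peg10 (lower panel), red where called. The upper panel shows 4 members and Gm37899 between 2.16 and 2.74, and the lower shows Peg10 at 2.97 beside Sgce at 0.15.

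Peg10 and Sgce on chromosome 6 start 99 bases apart, on opposite strands, and both are read from the paternal copy. Peg10 (chr6:4747306-4760517, plus strand), a retrotransposon-derived gene required for the placenta, was at 189, 180 and 84.1 CPM in DKO against 19.4, 25.0 and 13.9 CPM in WT. It had the largest log2 fold change of the called members, 2.97 (SE 0.33, edgeR adjusted p = 0.00207), with means of 151 ± 58.1 and 19.4 ± 5.53 CPM (SD, n = 3 each). Sgce (chr6:4674350-4747207, minus strand), epsilon-sarcoglycan of the membrane complex that links the cell to its matrix, was at 41.2, 55.7 and 49.3 CPM in DKO against 42.8, 48.9 and 40.7 CPM in WT, with overlapping groups and a log2 fold change of 0.15 (SE 0.15, edgeR adjusted p = 0.696).

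The log2 ratio of Peg10 to Sgce was 2.20, 1.69 and 0.77 in DKO against -1.14, -0.97 and -1.55 in WT. Every DKO library thus held more Peg10 than Sgce RNA by counts and every WT library held less. The difference of 2.77 had an exact two-sided permutation p of 0.1, the smallest this design can give (0.4 after adjustment over the 8 ratios compared).

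Asb4, a maternally read ubiquitin ligase subunit in the same cluster, was at 223, 611 and 96.2 CPM in DKO against 69.4, 17.6 and 3.07 CPM in WT. The groups did not overlap, but they spread widely, and at a log2 change of 3.35 (SE 1.23) Asb4 was not called (edgeR adjusted p = 0.25). The highest value was in DKO 40 among DKO and in WT 32 among WT, the libraries with the highest summed mesenchyme markers of each group. Dlk1 was also highest in DKO 40 among DKO. Among WT, Dlk1 was highest in WT 53 (26.7 CPM) and lowest in WT 56 (13.04 CPM), with mesenchyme sums of 107 and 128 CPM. Pdgfra alone held 37.4 and 94.5 CPM of these sums, so their order depends on that marker. The part of mesenchyme RNA in the values of Asb4 and Dlk1 was not tested. Of 8 other tested genes near this cluster, Casd1, a sialic acid O-acetyltransferase, rose with a log2 fold change of 0.66 (SE 0.13, edgeR adjusted p = 0.029), at 102, 115 and 86.0 CPM in DKO against 64.5, 64.8 and 63.3 CPM in WT. Ppp1r9a, the actin-binding neurabin, rose with one of 0.98 (SE 0.20, edgeR adjusted p = 0.0291), at 23.1, 24.8 and 18.1 CPM in DKO against 12.1, 9.25 and 11.7 CPM in WT. Both calls were lost when any single library other than DKO 41 was left out.

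**Figure D5:**
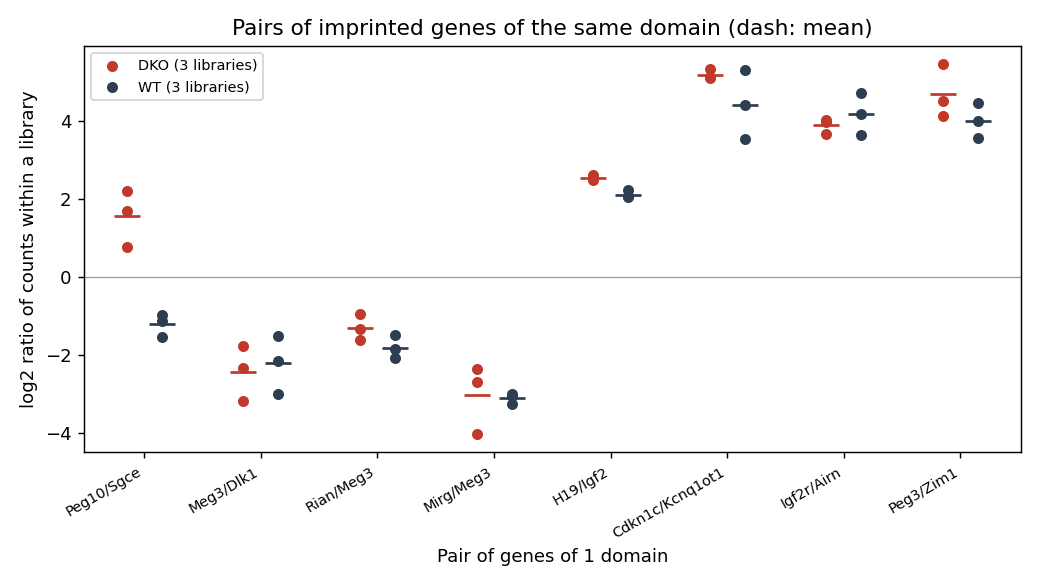
Log2 ratio of a pair of imprinted genes of one domain in each library, DKO left of WT, with 1 point per library, for the 8 pairs compared. The groups of Peg10/Sgce lie apart, between 0.77 and 2.20 in DKO and between -1.55 and -0.97 in WT, and those of H19/Igf2 lie apart by 0.43 in their means (0.15, with overlapping groups, when Gm49394 is added to Igf2).

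Mest and Ndn rose by smaller folds. Mest, a paternally read gene for a protein with an alpha/beta hydrolase fold, was at 3304, 3814 and 2880 CPM in DKO against 1828, 2223 and 1449 CPM in WT. The lowest DKO library lay above the highest WT library, with a fold of 1.82 and a log2 change of 0.86 (SE 0.16, edgeR adjusted p = 0.0211). Its exons overlap those of Copg2 on the opposite strand by 912 bases, and Copg2 had a log2 fold change of 0.01 (edgeR adjusted p = 0.988). Ndn, necdin of the MAGE family and a paternally read gene of the Snrpn-Ube3a domain, was at 146, 179 and 151 CPM in DKO against 99.7, 110 and 105 CPM in WT. Its groups did not overlap, with a log2 fold change of 0.60 (SE 0.12, edgeR adjusted p = 0.0264). Mest was no longer called when WT 32, WT 56 or DKO 40 was left out (adjusted p up to 0.111), nor Ndn when DKO 40 or any WT library was (adjusted p up to 0.146).

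The rest of the Snrpn-Ube3a domain gave no call. Snrpn, a spliceosomal protein gene, was at 110, 88.8 and 88.6 CPM in DKO against 97.9, 106 and 89.4 CPM in WT, with overlapping groups and a log2 fold change of -0.03 (edgeR adjusted p = 0.95). Ube3a, a ubiquitin ligase read from the maternal copy in neurons, averaged 80.5 CPM in DKO and 71.9 CPM in WT. The MAGE gene Magel2 and Peg12 were low, at 0.727 and 3.80 CPM on average in DKO and 0.342 and 2.50 CPM in WT.

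Neither gene of the H19-Igf2 domain on chromosome 7 was called. H19, a maternally read long noncoding RNA, averaged 2152 ± 181 CPM in DKO and 1922 ± 155 CPM in WT, and the groups overlapped (log2 fold change 0.16, SE 0.10, edgeR adjusted p = 0.471). Igf2, the paternally read fetal growth factor, was at 369.7, 391.8 and 348.9 CPM in DKO against 473, 443 and 421 CPM in WT. All DKO values of Igf2 lay below all WT values, with a log2 fold change of -0.27 (SE 0.10) that missed the threshold (edgeR adjusted p = 0.196). This separation was lost when Igf2 was summed with Gm49394. The part of read assignment, and of a change in Gm49394 RNA, was not tested. Exons of Igf2 overlap those of Gm49394 on the same strand by 3596 bases, and Gm49394 was at 85.8, 110.5 and 64.2 CPM in DKO against 1.66, 0.600 and 19.2 CPM in WT (log2 fold change 3.52, SE 0.84, edgeR adjusted p = 0.0785). Summed, both genes were at 455.5, 502.2 and 413 CPM in DKO against 474.9, 443.1 and 440.0 CPM in WT, with overlapping groups and a log2 ratio of the means of 0.01. The log2 ratio of H19 to Igf2 was 2.54 ± 0.07 in DKO and 2.11 ± 0.10 in WT (SD, n = 3 each), a difference of 0.43 with non-overlapping groups (exact permutation p = 0.1, 0.4 adjusted over the 8 ratios). With Gm49394 added to Igf2, an alternative chosen after seeing the data, the ratio was 2.24 ± 0.07 in DKO and 2.08 ± 0.12 in WT, a difference of 0.15 with overlapping groups (exact permutation p = 0.2). For no other member did adding a gene of the table with overlapping exons change whether the groups overlapped.

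Igf2r, the maternally read receptor that clears IGF2, was at 77.0, 89.7 and 87.6 CPM in DKO against 53.2, 47.2 and 71.5 CPM in WT (log2 fold change 0.56, SE 0.17, edgeR adjusted p = 0.103). Airn, the paternally read antisense RNA that silences Igf2r in cis, was at 4.72, 5.70 and 6.98 CPM in DKO against 4.28, 2.59 and 2.73 CPM in WT (log2 fold change 0.84, SE 0.30, edgeR adjusted p = 0.178). Neither passed the test, although in both every DKO library lay above every WT library. Their ratio differed by -0.29 on the log2 scale (exact permutation p = 0.5). Airn starts within Igf2r on the opposite strand, and the libraries do not mark the strand. The part of Igf2r reads in the Airn value was not tested.

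Cdkn1c, a maternally read inhibitor of cyclin-dependent kinases, was at 646, 1036 and 1146 CPM in DKO against 535, 636 and 511 CPM in WT. The lowest DKO library, DKO 17, lay just above the highest WT library, and the log2 fold change of 0.75 (SE 0.20) missed the threshold (edgeR adjusted p = 0.0713). It passed without DKO 17 (adjusted p = 0.00724) and by DESeq2 (adjusted p = 0.0129). Kcnq1ot1, the paternally read RNA that silences that domain in cis, was at 18.7, 30.1 and 28.7 CPM in DKO against 46.6, 16.04 and 24.2 CPM in WT, with overlapping groups. Of the other maternally read genes of the domain, Phlda2, which restrains placental growth, averaged 2.58 CPM in DKO and 1.59 CPM in WT. The transporter Slc22a18 averaged 2.02 CPM in DKO and 2.14 CPM in WT, and the trophoblast transcription factor Ascl2 0.585 CPM in DKO and 0.579 CPM in WT. None of these passed the test.

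Grb10, an adaptor that dampens insulin and IGF receptor signalling, was at 475, 537 and 565 CPM in DKO against 431, 391 and 450 CPM in WT (log2 fold change 0.31, edgeR adjusted p = 0.165). Its neighbour Ddc, aromatic amino acid decarboxylase, averaged 4.67 CPM in DKO and 2.86 CPM in WT. Zdbf2, a zinc-finger protein gene, was at 15.3, 18.3 and 14.9 CPM in DKO against 12.1, 10.8 and 9.39 CPM in WT (log2 fold change 0.58, edgeR adjusted p = 0.146, DESeq2 adjusted p = 0.0238). Peg13, a noncoding RNA inside Trappc9, was at 17.6, 8.43 and 12.6 CPM in DKO against 6.64, 3.93 and 6.30 CPM in WT (log2 fold change 1.17, edgeR adjusted p = 0.0807, DESeq2 adjusted p = 0.0126). In all 4 every DKO library lay above every WT library without a call by edgeR.

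Besides Igf2, the members whose DKO libraries all lay below the WT libraries were Nnat, Gnas and Zim1. Nnat, a small membrane protein of the endoplasmic reticulum, was at 411, 405 and 533 CPM in DKO against 1089, 651 and 551 CPM in WT (log2 fold change -0.76, SE 0.24, edgeR adjusted p = 0.116, DESeq2 adjusted p = 0.0362). Gnas, whose overlapping transcripts are pooled into 1 count here and include the stimulatory G protein alpha subunit, was at 1494, 2005 and 2326 CPM in DKO against 2436, 2665 and 2363 CPM in WT (log2 fold change -0.36, edgeR adjusted p = 0.253). Zim1, a maternally read zinc-finger gene, was at 19.9, 12.6 and 20.9 CPM in DKO against 26.8, 22.0 and 21.1 CPM in WT (log2 fold change -0.39, edgeR adjusted p = 0.413). The gap between the nearest libraries of the groups was small in all 3.

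Peg3, the zinc-finger gene of the same domain as Zim1, was at 345, 549 and 475 CPM in DKO against 423, 258 and 463 CPM in WT, with overlapping groups. Usp29, which starts 147 bases from Peg3 on the opposite strand, was at 0.060, 2.31 and 1.46 CPM in DKO against 1.40, 1.20 and 1.27 CPM in WT. Plagl1, a zinc-finger transcription factor, averaged 1.73 CPM in DKO and 2.66 CPM in WT. Impact, a regulator of the GCN2 kinase pathway, averaged 33.9 CPM in DKO and 30.6 CPM in WT, and Nap1l5, in an intron of Herc3, averaged 0.428 CPM in DKO and 1.02 CPM in WT. The groups overlapped in all 5.

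Per length, the set spanned a wide range of levels. H19 averaged 875 CPM per kb of exon in DKO and 781 CPM per kb in WT, where it ranked 22 among the 19103 tested genes with an annotated length. Mest followed at 845 CPM per kb in DKO and 465 CPM per kb in WT, Cdkn1c at 462 and 275 CPM per kb in DKO and WT, and Nnat at 246 CPM per kb in DKO and 418 CPM per kb in WT. The genes with the largest changes stood lower. Dlk1 averaged 19.6 CPM per kb in DKO and 3.76 CPM per kb in WT, Peg10 22.7 CPM per kb in DKO and 2.92 CPM per kb in WT, and Rian 0.441 CPM per kb in DKO and 0.0681 CPM per kb in WT. Exon lengths come from the union of annotated exons, so a gene with unused exons is set too low on this scale.

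Of 61 further imprinted or candidate imprinted genes, 47 were tested, 4 rose and 2 fell, with a median log2 fold change of 0.13. Over all genes tested 1.7% rose and 2.81% fell. Casd1 and Ppp1r9a are among the 4. Klf14, a maternally read KLF factor 235.5 kb from Mest, averaged 0.850 ± 0.179 CPM in DKO and 0.0692 ± 0.0760 CPM in WT (log2 fold change 3.46, SE 0.72, edgeR adjusted p = 0.0185). Without WT 32 its log2 fold change was 4.59 and its adjusted p 0.0974. Cdh15, M-cadherin, averaged 2.08 CPM in DKO and 0.407 CPM in WT (log2 fold change 2.30, edgeR adjusted p = 0.0425). Cobl, an actin nucleator, averaged 0.611 CPM in DKO and 2.82 CPM in WT (log2 fold change -2.26, edgeR adjusted p = 0.0431). Pde10a, a cyclic nucleotide phosphodiesterase, averaged 6.32 ± 2.76 CPM in DKO and 16.7 ± 3.41 CPM in WT (log2 fold change -1.37, edgeR adjusted p = 0.0462). Of the 6 fits with a single library left out, the call of Klf14 held in 2, and those of Cdh15, Cobl and Pde10a in 1 each. With DKO 40 or any WT library left out, none of the 4 genes of the list that rose was called.

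Of 24 factors known to set or keep imprints, 20 were tested and 0 were called in either direction by edgeR, with a median log2 fold change of -0.05. Over all genes tested 4.51% were called, a share that gives few calls among 20 genes. At an unadjusted p under 0.05, 1 was higher and 3 were lower, and DESeq2 called 1 higher and 1 lower. The higher one was Trim28, the corepressor that ZFP57 recruits (DESeq2 log2 fold change 0.37, adjusted p = 0.00676; edgeR adjusted p = 0.0698). The lower one was Suz12, a subunit of Polycomb repressive complex 2 (DESeq2 log2 fold change -0.53, adjusted p = 0.0297; edgeR adjusted p = 0.0997). With DKO 41 left out, edgeR called 2 of the factors lower.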

How the data were processed

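RNA of forelimb bud ectoderm was sequenced in 3 DKO and 3 WT libraries, made with SMART-Seq v4 and Nextera XT, which mark neither strand nor single molecules, per the labels' protocols. The authors deposited raw counts per gene. The submitters' processing notes name the builds GRCm38 and mm10 and the tools DESeq2, StringTie, Cufflinks, HISAT2, fastp and FastQC; the step that wrote the counts is not given in the sources used here. The columns were matched to groups by name, and their numbers match no replicate number of the labels. Which samples shared a litter is not in the labels, and p-values reflect only how far these samples spread, which may be technical. The 4 samples at E10.5 were not analysed here. No 2 libraries agreed within sampling noise (chi-square per degree of freedom at least 54.65).

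Counts were filtered with filterByExpr, scaled by TMM and tested with edgeR 4.0.16 in R 4.3.3 (quasi-likelihood, robust), with Benjamini-Hochberg adjustment over all genes tested. Fold is the ratio of group mean CPM, and SE is the size of edgeR's log2 fold change over the root of its F statistic. Ratios within a domain used a pseudocount of 0.5 counts and an exact permutation test. Positions and exon lengths came from GENCODE M21 (99.53% of identifiers matched), and sequences from RefSeq. Alternatives were RLE scaling, other filters, another dispersion fit, DESeq2 1.42.0, each library left out, and WT 32 and DKO 41 left out together, with the highest mesenchyme sum among WT and the highest globin sum of all. The edgeR script was tested on simulated data. The members, lists and markers were chosen with earlier results of these data known. Each member is named, and called members, and those with separate groups and a mean of at least 5 CPM in the higher group, have a value for each library. Of the other lists, called genes are named, at most 6 a list by smallest p. Of the called neighbours of members, 1 is not reported here.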

Additional observations from a re-analysis of the deposited data

How the results depend on the processing

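Dlk1, Meg3, Rian and Peg10 were called higher under every alternative run, with adjusted p up to 0.0242, 0.0243, 0.0197 and 0.0221 when single libraries were left out. The same 7 members were called under RLE scaling, a filter of 1 CPM in 3 libraries, the other dispersion fit and without DKO 41. Without the filter on low counts, and without WT 32 and DKO 41 together, 4 members were called higher in place of 7, with Mest, Mirg and Ndn lost. DESeq2 called 1 member lower, Nnat, where edgeR called 0. With single libraries left out, 4 to 7 members were called higher and 0 lower (4 without DKO 40, WT 32 or WT 56), 53 to 332 of all genes higher (85 without DKO 40, 71 without WT 32, 151 without WT 53, 53 without WT 56) and 194 to 592 lower (210 without DKO 40, 242 without WT 32, 194 without WT 56), 0 to 3 of the further imprinted genes higher (2 without DKO 17, 0 without DKO 40 or any WT library) and 0 to 1 lower (1 without DKO 40 or DKO 41), 0 of the maintenance factors higher and 0 to 2 lower, and 1 to 6 of the neighbours higher and 0 to 1 lower. Over all genes, the calls higher and lower were 116 and 296 without the filter, 200 and 346 with the other dispersion fit, 754 and 984 by DESeq2, and 95 and 282 without both libraries, beside 325 and 538. The causes were not tested. DESeq2 called 1 maintenance factor higher and 1 lower, and 3 neighbours lower. Of the neighbours, 3 were higher within 100 kb, in place of 6 within 250 kb. No fold change of a called member changed sign under any alternative, and 13 values of members that were not called did, beside Igf2 with Gm49394 added (0.01 in place of -0.27, an alternative chosen after seeing the data). Differences of the ratios ranged, over single libraries left out, from 2.45 to 3.16 (Peg10/Sgce), -0.61 to 0.16 (Meg3/Dlk1), 0.33 to 0.68 (Rian/Meg3), -0.25 to 0.59 (Mirg/Meg3), 0.39 to 0.49 (H19/Igf2, 0.15 with Gm49394 added to Igf2), 0.32 to 1.21 (Cdkn1c/Kcnq1ot1), -0.56 to -0.03 (Igf2r/Airn) and 0.32 to 0.98 (Peg3/Zim1). No paired analysis was possible because the columns carry no replicate number of the labels. Values under 1 CPM in some or all libraries, as in Rtl1, Magel2, Nap1l5 and Ascl2, limit what can be shown for those genes. The same limit holds for the calls of Mirg, Gm37899, Klf14 and Cdh15, whose WT libraries were all under 1 CPM.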

Other observations

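Among the 101 tested genes that start within 250 kb of a member and are not members, 6 rose and 0 fell by edgeR (17 were higher and 5 lower at an unadjusted p under 0.05, and DESeq2 called 7 higher and 3 lower), with a median log2 fold change of 0.09. Over all genes tested 1.7% rose and 2.81% fell by edgeR. Without DKO 17 the count of neighbours higher was 3, and without DKO 40 or any WT library it was 1. Gm37899, Casd1, Ppp1r9a and Klf14 are described above. Tnnt3, fast skeletal muscle troponin T, which lies near H19, was at 13.4, 12.2 and 7.99 CPM in DKO against 3.43, 2.72 and 2.43 CPM in WT (log2 fold change 1.96, SE 0.30, edgeR adjusted p = 0.00898). The groups did not overlap, and the call was lost without WT 56. The 4 muscle progenitor markers summed to 0.560 to 2.88 CPM in DKO and 0.732 to 1.11 CPM in WT, and their part in the value of Tnnt3 was not tested.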
